A study of Mus musculus with 16 samples.

Results

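Pituitary RNA was examined here for 40 endothelial, pericyte and angiogenic genes, chosen by name as markers of vessel cells or as signals that act on them and found by matching Ensembl identifiers to mouse symbols. All 40 were among the 17362 genes of the pituitary table, and all 40 were also among the 14345 genes tested, those whose level averaged 1 or more across the animals. The study profiled the pituitary of 16 female mice by bulk RNA-seq, 1 library per mouse, with 4 mice in each of 4 groups. Controls carried the floxed *Esr1* allele on both chromosomes (*Esr1* fl/fl), and mutants carried the same alleles together with *Nkx2.1-cre* (the *Esr1* Nkx2-1Cre mutant), on a mixed CD-1;129P2 background. Each genotype was kept on a standard chow diet (SD) or given a high-fat diet (HFD) for 17 weeks, and all mice were 27 weeks old. The floxed allele is thus shared by every group, and the mutants differ by the Cre and by what it deletes. *Nkx2-1* marks the ventral hypothalamus and the part of its floor that forms the posterior lobe of the pituitary, so the Cre is not a tool for vessel cells, and the labels do not say in which pituitary cells the allele was recombined.

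Blood reaches the anterior pituitary through portal vessels from the base of the hypothalamus and flows through a dense bed of fenestrated capillaries, whose pores let hormones pass. Endothelial cells are held in that state by vascular endothelial growth factor acting on the VEGF receptors, by angiopoietins acting on the TIE receptors, and by contact with pericytes, which endothelial PDGF-B recruits. During sprouting, Notch signalling between neighbouring endothelial cells decides which cell leads. In a whole gland, fewer cells of a type and less RNA per cell cannot be told apart, and this holds for every level given here.

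Levels are the deposited normalized expression signal, which scales with reads per length of transcript. Fold changes are differences in log2(signal + 0.5) from limma fitted over all genes, with p-values adjusted over all 14345 genes tested and a threshold of 0.05. Values in a group are always listed in 1 order of mice, which is P356, P358, P359 and P383 for controls on SD, P385, P390, P391 and P392 for controls on HFD, P357, P381, P382 and P384 for mutants on SD, and P339, P341, P387 and P388 for mutants on HFD. The sum of all values in a library was 908897 to 1335782, highest in P357, with P392 next at 1080960. *Prl*, the transcript of the lactotroph hormone prolactin, took 28.8% to 40.6% of the sum. In genes with 1 transcript, the value worth 3 reads was 0.142 to 0.211 at an effective length of 1 kilobase, and proportionally less in longer transcripts. The lowest value of any member in any mouse was 0.489.

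The label of the genotype was checked first. *Esr1*, the gene for oestrogen receptor alpha (ENSMUSG00000019768, chromosome 10, 4611593 to 5005614 on GRCm38), stood at 40.5, 46.6, 39.4 and 29.02 in controls and 10.02, 22.2, 20.5 and 21.8 in mutants on SD. On HFD it stood at 23.6, 43.4, 42.7 and 39.6 in controls and 33.4, 27.9, 33.03 and 21.5 in mutants. All 4 mutants were below the lowest control on SD, P383, while on HFD the genotypes overlapped. On SD the log2 difference between genotypes was -1.09 (adjusted p = 0.0409, limma; standard error 0.25) and -0.34 on HFD (standard error 0.25, adjusted p = 0.696, limma).

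All 40 members were above 0 in every mouse, among them the general endothelial markers *Cdh5*, *Pecam1*, *Kdr*, *Flt1*, *Tek*, *Tie1*, *Plvap*, *Emcn*, *Egfl7* and *Esam*, between 3.39 and 143. *Plvap*, which builds the diaphragms of fenestrated capillaries, was between 56.7 and 143. The list of blood-brain barrier endothelium summed to between 31.0 and 48.3, with *Slc2a1* at a mean of 14.5 and *Abcg2* at 13.9, while its transporter *Slco1a4* was between 0 and 0.582. By mean level over the 16 mice, *Vegfa* led the members at 90.1, followed by *Plvap* at 84.3, *Rgs5* at 59.6, *Egfl7* at 35.9, *Angpt1* at 35.8 and *Esm1* at 30.9. Of the 40 members, 15 averaged 10 or more and 12 averaged under 5, and *Fli1* was lowest at 1.22. The median member was at 8.10, against 13.5 for all genes tested.

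Before the comparisons, 2 libraries stood apart. P392, a control on HFD, was the highest of the 4 controls on HFD in 33 of the 40 members, where this was so for 31.4% of all genes tested, and the highest of all 8 controls in 32 members, where this was so for 21.5%. It was the highest of all 16 mice in 13 members, against 7.77% of all genes. Expressed as the median over the members of the difference in log2 value from the mean of controls on SD, P392 stood at 0.79, the other 7 controls at -0.21 to 0.08, and the 8 mutants at 0.44 to 0.58. *Esr1* in P392 was 39.6, within the range of the other controls and above every mutant. Since the genotypes overlapped in *Esr1* on HFD, this value alone does not settle the label of P392, which was not tested further. The oestrogen-induced genes *Gal*, *Greb1* and *Pgr* in P392, at 2548, 111 and 20.1, lay within the range of mutants on HFD, and *Prl* lay above it. P357, a mutant on SD, was the highest of all 16 mice in 10 members, against 19.1% of all genes. Its mitochondrial transcripts summed to 119409, where the other libraries had 32247 to 49368, and it listed 533 genes at 0, where the others had 96 to 310. Its *Esr1* was the lowest of all mice. The part of these library features in the genotype differences was not tested.

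The members were chosen with earlier results of these data known, so their shares beside those of all genes are descriptive and no separate test. With both diets averaged, 11 of the 40 members rose in mutants and 1 fell at an adjusted p under 0.05 (limma), where 4.48% of all genes tested rose and 2.06% fell. Those that rose were *Vegfa*, *Tek*, *Dll4*, *Rgs5*, *Cdh5*, *Pecam1*, *Eng*, *Plvap*, *Robo4*, *Sox18* and *Egfl7*, and the gene that fell was *Angpt1*. The median log2 fold change of the members was 0.48, against 0.00 for all genes tested, and 38 of the 40 were above 0, against 50.4% of all genes. On SD alone, 1 member rose and 0 fell, where 1.37% of all genes rose and 0.474% fell, and the member that rose was *Sox18*. At an unadjusted p under 0.05, 18 members were higher and 1 lower in mutants on SD, where 10.9% and 9.02% of all genes were, and the median was 0.51. On HFD alone, 0 members passed in either direction, as did 0% of all genes, while 12 members were higher and 1 lower at an unadjusted p under 0.05, against 6.58% and 3.6% of all genes, and the median was 0.36. The average uses the mice of both diets, so it is not independent of the comparison on SD or on HFD. The comparisons on SD and on HFD share no mice with each other, but they share 1 estimate of the spread, which links their p-values.

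**Figure D1:**
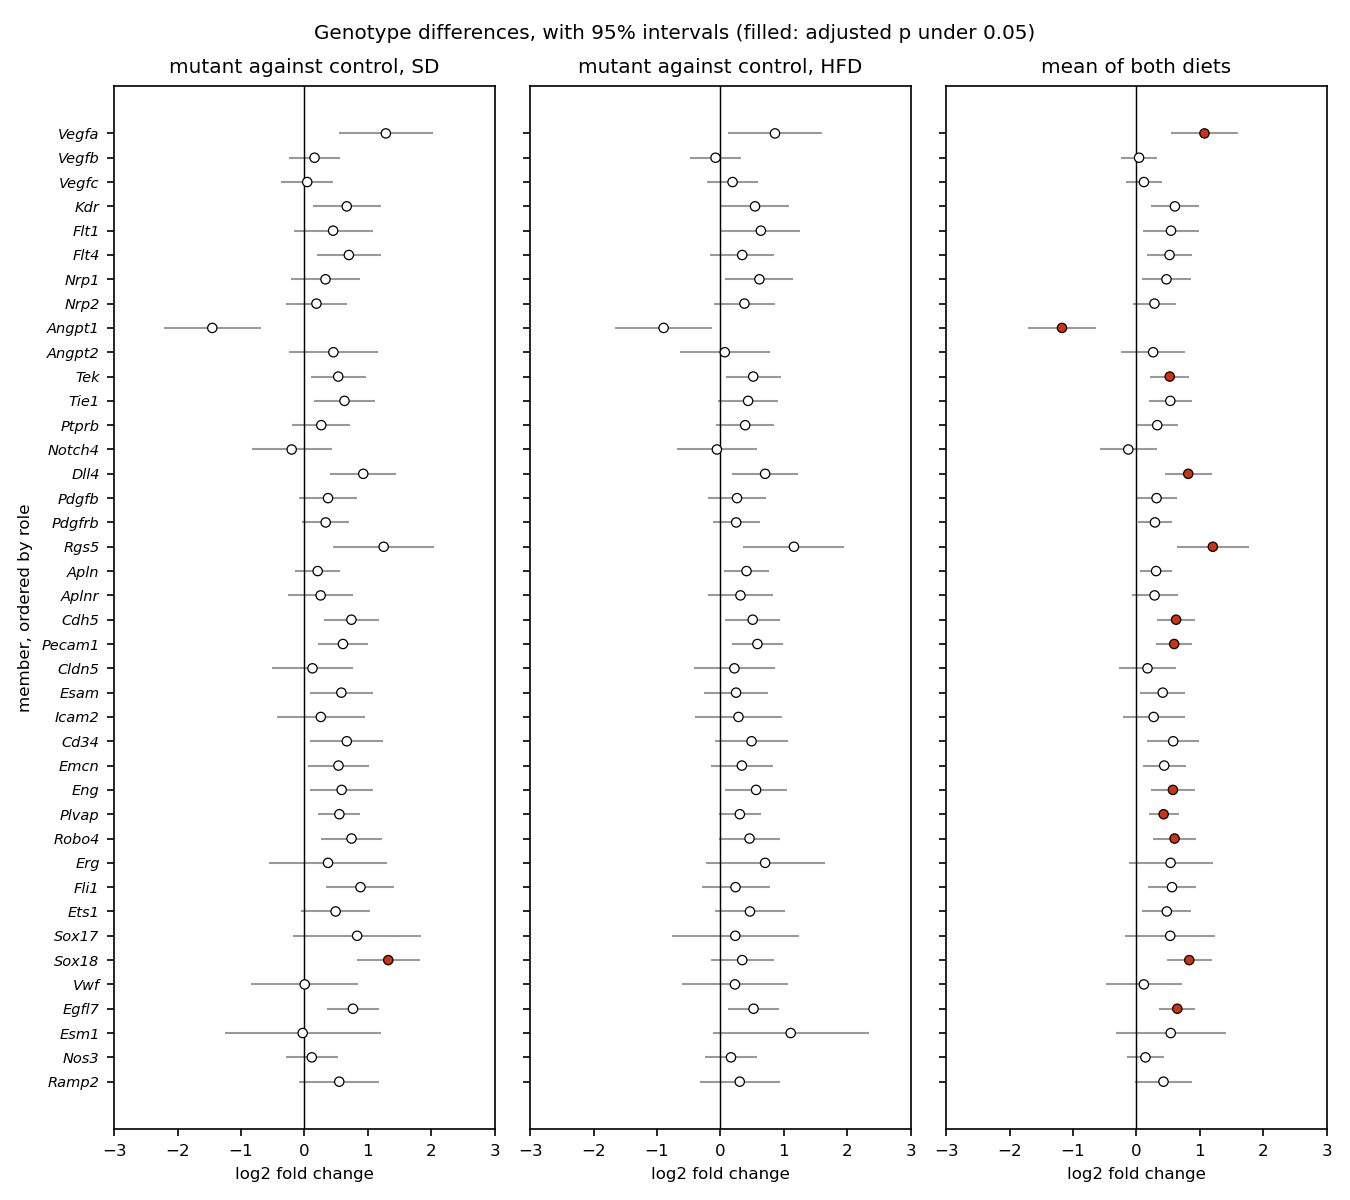
Log2 fold change of each member between mutants and controls (horizontal axis, 0 marked by a line) on SD, on HFD and averaged over both diets, with 95% intervals from limma as bars and filled points where the adjusted p was under 0.05. *Sox18* is filled on SD, none is filled on HFD, and 12 are filled in the average, all to the right of 0 except *Angpt1* at -1.17.

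Without P392, 15 members were called higher in mutants on HFD, where 3.62% of all genes were, and 15 were called higher and 1 lower on SD (3.74% and 1.68% of all genes), where the library enters only through the shared spread. In the average of both diets 22 were then called higher and 1 lower (8.59% and 4.87% of all genes). The median log2 fold change on HFD was then 0.58. P392 was picked out for its high values in these same members, so calls made without it show how the result depends on it and are no separate test. For the 15 members named with an identifier below, the log2 fold change on HFD is given with and without this library. Without P357, 14 members were called higher and 1 lower in the average (5.91% and 2.93% of all genes), 1 higher on SD (0.739% of all genes) and 0 on HFD (0%), where 15 were higher and 1 lower at an unadjusted p under 0.05 (8.74% and 5.20% of all genes).

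**Figure D2:**
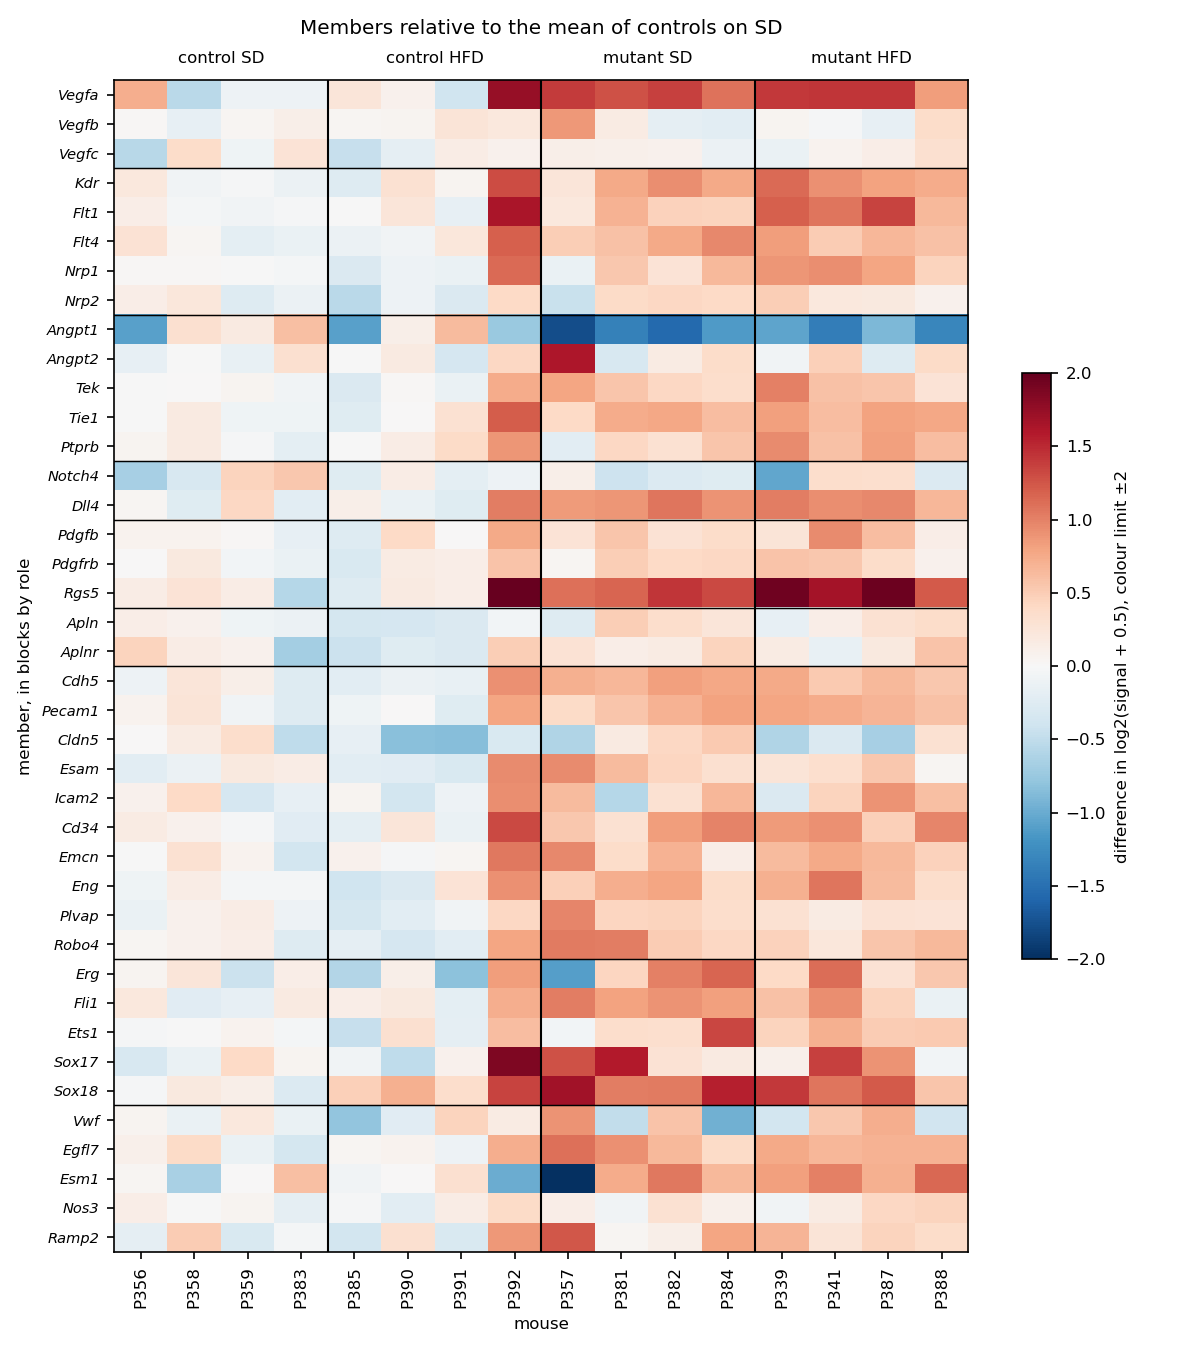
Each member (rows, in blocks by role) in each of the 16 mice (columns, by group) as the difference in log2(signal + 0.5) from the mean of controls on SD, from blue for lower to red for higher. The mutant columns and P392 are mostly red, with *Angpt1* blue in all of them and *Esm1* blue in P357 and P392.

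The groups themselves separated in many members. On SD, every mutant lay above every control in 19 of the 40 members, where this held for 6.09% of all genes tested, and below every control in 1 member, *Angpt1*, where this held for 4.5%. On HFD, every mutant lay above every control in 1 member, *Esm1*, where this held for 2.96%.

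Of the 3 VEGF ligands, *Vegfa* rose in the average of both diets and *Vegfb* and *Vegfc* did not pass. *Vegfa* encodes the growth factor on which capillary fenestrae depend (ENSMUSG00000023951, chromosome 17, 46016993 to 46032369). Its level was 79.1, 32.6, 44.5 and 44.5 in controls and 126, 116, 123 and 102 in mutants on SD. On HFD it was 56.2, 50.4, 35.9 and 160.4 in controls and 127, 129, 129 and 85.5 in mutants. All mutants on SD were above all controls on SD, among which P356 was highest, and on HFD P392 exceeded every mutant while the other controls lay below them. In the average *Vegfa* rose by 1.07 on the log2 scale (standard error 0.25, adjusted p = 0.0190, limma); the values by diet were 1.28 on SD (adjusted p = 0.0673) and 0.86 on HFD (adjusted p = 0.417). Without P392 it passed on HFD, at 1.30. *Vegfb*, which acts on FLT1, ranged from 21.7 to 46.6 over the mice, with a log2 fold change of 0.04 (95% interval -0.24 to 0.33). For *Vegfc*, the lymphatic growth factor, the values were 5.12 to 10.2 and the log2 fold change was 0.12 (95% interval -0.17 to 0.40).

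The RefSeq promoter table (GRCm38.p6) held windows for 22 of the 40 members, 27 windows in all, and for 7 of the 12 members that passed. The 250 bases before the start site are shown for *Vegfa*, *Dll4*, *Eng* and *Tek*, which rose together in the mutants and whose windows lie just outside the annotated gene, with capitals at matches to any of 5 motifs on either strand. The motifs were ACGTG, the core that hypoxia-inducible factors recognize, AGGAAG, a core of the ETS factors to which *Erg*, *Fli1* and *Ets1* belong, GGGCGG, the GC box, and GGTCA, a single arm of the oestrogen response element, and beside them the whole palindrome of that element, 2 such arms facing each other with 3 bases between, which holds GGTCA on each strand. Each line runs 5′ to 3′ along the strand of its gene.
*Vegfa* (chr17:46032378-46032627, minus strand): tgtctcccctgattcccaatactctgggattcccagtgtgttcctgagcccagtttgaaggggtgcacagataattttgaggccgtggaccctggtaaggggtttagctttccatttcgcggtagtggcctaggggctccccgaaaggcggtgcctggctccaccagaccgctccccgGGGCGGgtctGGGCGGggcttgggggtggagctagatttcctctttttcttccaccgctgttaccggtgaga
*Dll4* (chr2:119325534-119325783, plus strand): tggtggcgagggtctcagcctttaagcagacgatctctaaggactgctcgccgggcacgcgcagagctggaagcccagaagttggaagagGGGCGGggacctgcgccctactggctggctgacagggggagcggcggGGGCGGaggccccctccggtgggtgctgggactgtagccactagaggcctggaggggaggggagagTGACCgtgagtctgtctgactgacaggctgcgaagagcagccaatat
*Eng* (chr2:32646345-32646594, plus strand): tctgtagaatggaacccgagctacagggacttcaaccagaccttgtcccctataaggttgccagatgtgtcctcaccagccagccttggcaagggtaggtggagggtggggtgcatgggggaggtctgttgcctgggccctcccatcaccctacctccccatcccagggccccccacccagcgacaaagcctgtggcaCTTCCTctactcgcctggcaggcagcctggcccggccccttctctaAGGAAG
*Tek* (chr4:94739039-94739288, plus strand): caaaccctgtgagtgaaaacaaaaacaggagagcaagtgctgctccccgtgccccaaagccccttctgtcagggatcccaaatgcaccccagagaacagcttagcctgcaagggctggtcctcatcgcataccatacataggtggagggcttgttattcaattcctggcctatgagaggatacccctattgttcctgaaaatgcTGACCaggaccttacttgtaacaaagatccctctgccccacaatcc
The GC box lies at 2 places each in the windows of *Vegfa* and *Dll4*, the ETS core at 2 places in *Eng*, and the single arm at 1 place each in *Dll4* and *Tek*. Of the 27 windows of members, the ETS core was present in 12, the GC box in 14, the single arm in 15, ACGTG in 1 (a second start of *Vegfa*) and the palindrome in 0. Over all 32851 windows of the table, the shares were 29.5% for the ETS core, 32.7% for the GC box, 35.2% for the single arm, 16.6% for ACGTG and 0.0639% for the palindrome. *Rgs5* also rose, and its window lies just outside its gene too. That window is not shown and held no match to any of the 5. These are matches of letters in a window and were not tested as binding sites.

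The 5 VEGF receptors and co-receptors had medians above 0 in every genotype comparison, but 0 of the 5 passed, and 4 of 5 were higher in the average at an unadjusted p under 0.05, as were 13% of all genes. *Kdr* encodes VEGFR2, the main signalling receptor for VEGF-A on endothelium (ENSMUSG00000062960, chromosome 5, 75932827 to 75978458). It measured 13.9, 11.3, 11.7 and 10.97 in controls and 14.1, 20.4, 23.2 and 20.4 in mutants on SD. The HFD groups measured 9.83, 14.9, 12.3 and 30.3 for controls and 26.8, 22.8, 21.1 and 20.2 for mutants. Mutants on SD exceeded controls on SD without overlap, by a small margin in P357, and on HFD only P392 among the controls exceeded the mutants. Its log2 fold change was 0.61 in the average (standard error 0.18, adjusted p = 0.0529, limma), and without P392 *Kdr* passed in the average, on SD and on HFD, at 0.77, 0.67 and 0.86, the last against 0.55 with it. It also passed in the average without P356 and without P357. The decoy receptor *Flt1* gave 0.55, the lymphatic receptor *Flt4* 0.52, and the neuropilins *Nrp1* and *Nrp2*, which present VEGF and semaphorins, 0.47 and 0.28, with adjusted p from 0.0747 (*Flt4*) to 0.302 (*Nrp2*). Without P392, *Flt1*, *Flt4* and *Nrp1* passed on HFD, at 1.04, 0.64 and 0.94, against 0.64, 0.34 and 0.61 with it.

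In the angiopoietin and TIE group, the ligand *Angpt1* fell while its receptor *Tek* rose. *Angpt1* encodes angiopoietin 1, which mural and stromal cells secrete to keep endothelium quiescent (ENSMUSG00000022309, chromosome 15, 42424723 to 42676977). Controls on SD had 23.6, 63.2, 57.3 and 77.2 and mutants on SD 14.5, 19.6, 16.96 and 22.8. On HFD the controls had 23.6, 54.97, 79.3 and 30.2 and the mutants 24.2, 19.1, 26.9 and 20.1. Levels in mutants were uniformly low, and 3 controls were low as well, P356, which stayed above the mutants on SD, and P385 and P392, of which P385 fell within the mutant range on HFD. *Angpt1* fell in the average, with -1.17 in log2 (standard error 0.25, adjusted p = 0.0148, limma), -1.45 on SD (adjusted p = 0.0510) and -0.90 on HFD (adjusted p = 0.408). It was -1.05 on HFD without P392, and -1.82 on SD without P356.

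*Tek* encodes the receptor TIE2 (ENSMUSG00000006386, chromosome 4, 94739289 to 94874976). Its level was 4.25, 4.29, 4.44 and 4.05 in controls and 7.73, 6.51, 5.85 and 5.60 in mutants on SD. With HFD, controls had 3.39, 4.32, 3.84 and 7.42 and mutants 9.02, 6.61, 6.45 and 5.25. The SD groups did not overlap, and on HFD P392 lay within the mutant range. *Tek* rose by 0.52 in the average (standard error 0.14, adjusted p = 0.0428, limma), and among the omissions of 1 mouse the call was kept only without P356, P388 or P392. On HFD it was 0.52 with P392 and 0.73 without, where it passed. *Tie1*, the orphan partner of TIE2, gave 0.53 (adjusted p = 0.0558, limma), *Ptprb*, the phosphatase that restrains TIE2, 0.33, and *Angpt2*, the context-dependent antagonist, 0.26, with adjusted p of 0.211 and 0.551. The highest *Angpt2* was 5.98, in P357, and the remaining mice had 1.17 to 2.45.

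Of the 2 endothelial Notch genes, *Dll4* rose in the average and *Notch4* did not pass. *Dll4* encodes the ligand that VEGF induces in the leading cell of a sprout (ENSMUSG00000027314, chromosome 2, 119325784 to 119335962). It was at 1.65, 1.26, 2.30 and 1.30 in controls and 3.27, 3.35, 3.90 and 3.41 in mutants on SD. In the HFD groups it was at 1.76, 1.40, 1.26 and 3.75 in controls and 3.76, 3.46, 3.56 and 2.81 in mutants. Mutants exceeded controls on SD with no overlap, and on HFD P392 was level with the highest mutant. *Dll4* rose by 0.82 in the average (standard error 0.17, adjusted p = 0.0139, limma). On HFD it was 0.71 with P392 and 0.98 without, where it passed. *Notch4* encodes an endothelial Notch receptor (ENSMUSG00000015468, chromosome 17, 34564268 to 34588503). Its level was 6.58, 8.46, 14.8 and 15.8 in controls on SD and 11.7, 7.95, 8.82 and 8.97 in mutants on SD. On HFD the values were 8.99, 11.9, 9.27 and 9.979 in controls and 4.97, 13.8, 13.6 and 8.83 in mutants. The 4 groups overlapped throughout, and the log2 fold change in the average was -0.13 (95% interval -0.58 to 0.32). On HFD it was -0.06 with P392 and -0.06 without.

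Among PDGF-B and the pericyte genes, *Rgs5* had the largest rise of the whole list in the average. *Rgs5* encodes a regulator of G-protein signalling that marks pericytes (ENSMUSG00000026678, chromosome 1, 169655501 to 169695813). It amounted to 30.5, 33.5, 30.5 and 18.4 in controls and 59.6, 62.03, 74.8 and 69.2 in mutants on SD. With HFD it amounted to 22.8, 31.3, 30.1 and 121 in controls and 108, 88.5, 108 and 65.4 in mutants. Each mutant on SD was well above each control on SD, and on HFD P392 was the highest of all 16 mice while the other 3 controls were below every mutant. Its log2 fold change was 1.20 in the average (standard error 0.27, adjusted p = 0.0162, limma), 1.25 on SD and 1.16 on HFD, and 1.69 on HFD without P392, where it passed. *Pdgfb*, the endothelial signal to pericytes, gave 0.32 (adjusted p = 0.230, limma) and its receptor *Pdgfrb* 0.29 (adjusted p = 0.172, limma).

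Neither apelin nor its receptor passed. *Apln* encodes the peptide that endothelial tip cells secrete (ENSMUSG00000037010, chromosome X, 48025146 to 48034853). Controls on SD measured 7.47, 7.20, 6.33 and 6.19, and mutants on SD 5.60, 9.77, 8.76 and 8.14. For the HFD groups the values were 5.22, 5.29, 5.43 and 6.51 in controls and 5.97, 7.44, 8.46 and 8.85 in mutants. The genotypes overlapped on each diet, with P357 the lowest of the mutants on SD. In the average the log2 fold change was 0.31 (adjusted p = 0.128, limma), and it passed without P357, at 0.39. *Apln* on HFD gave 0.41 with P392 and 0.48 without, and passed in neither, though at the latter fold change it did without P357 and P392. *Aplnr*, the receptor, gave 0.29 (adjusted p = 0.340, limma).

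Of the 10 junction and surface proteins, 5 rose in the average and 0 fell, where 4.48% and 2.06% of all genes did. *Cdh5* encodes VE-cadherin, the adhesion molecule of endothelial junctions (ENSMUSG00000031871, chromosome 8, 104101625 to 104144511). Its level was 6.45, 8.26, 7.51 and 5.73 in controls on SD and 11.6, 11.3, 12.6 and 12.2 in mutants on SD. Values on HFD were 5.93, 6.36, 6.19 and 13.5 for controls and 12.1, 10.2, 11.2 and 10.3 for mutants. Each mutant was above each control apart from P392, which had the highest value of the 16. On the log2 scale *Cdh5* rose by 0.62 in the average (standard error 0.14, adjusted p = 0.0190, limma), and on HFD gave 0.51 with P392 and 0.78 without, passing in the latter. *Pecam1* encodes CD31 (ENSMUSG00000020717, chromosome 11, 106654217 to 106750628). It read 8.54, 9.81, 7.69 and 6.72 in controls and 10.7, 12.1, 13.4 and 14.5 in mutants on SD. For HFD the readings were 7.60, 8.19, 6.81 and 14.5 and 14.4, 13.97, 13.3 and 12.5, controls first. Every mutant was again above every control but P392, which lay just above the mutants on HFD, and *Pecam1* rose by 0.60 in the average (standard error 0.13, adjusted p = 0.0175, limma). For HFD the fold change was 0.58 in log2, and 0.81 without P392, where it passed.

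*Eng* encodes endoglin, a co-receptor for the TGF-beta family (ENSMUSG00000026814, chromosome 2, 32646595 to 32682669). Its values were 13.3, 15.7, 13.8 and 13.8 in controls and 19.8, 23.7, 24.7 and 18.3 in mutants on SD. Those on HFD were 10.6, 11.5, 17.2 and 27.2 in controls and 23.4, 30.2, 22.1 and 18.1 in mutants. Groups on SD did not overlap, and on HFD P392 lay within the mutant range. *Eng* passed narrowly in the average, with 0.57 (standard error 0.16, adjusted p = 0.0481, limma), and among the omissions of 1 mouse it kept its call only without P357, P388 or P392. With HFD it gave 0.56, and without P392 it passed there at 0.83. *Plvap* encodes the protein of the fenestral diaphragm and was the most abundant of these 10 (ENSMUSG00000034845, chromosome 8, 71497765 to 71511752). Controls on SD gave 66.03, 76.9, 79.6 and 67.1 and mutants on SD 143, 97.8, 98.2 and 91.7. On HFD controls gave 56.7, 62.2, 68.7 and 96.8 and mutants 89.1, 80.8, 87.9 and 86.98. P357 was far above the other mutants on SD, all of which were above the controls, and on HFD P392 exceeded every mutant. The log2 fold change of *Plvap* was 0.43 in the average (standard error 0.11, adjusted p = 0.0324, limma), 0.55 on SD, 0.31 on HFD and 0.46 on HFD without P392, where it did not pass, though at the same fold change it did without P357 and P392. The call in the average was lost without P339, P341, P383, P385, P387, P388, P390 or P391.

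*Robo4* encodes the endothelial Roundabout receptor that steadies barrier function (ENSMUSG00000032125, chromosome 9, 37401897 to 37415115). It stood at 5.48, 5.65, 5.88 and 4.39 in controls and 11.4, 11.3, 7.80 and 7.23 in mutants on SD. Under HFD it stood at 4.62, 4.11, 4.53 and 9.58 in controls and 7.53, 6.32, 8.02 and 8.66 in mutants. No control on SD reached any mutant on SD, and on HFD P392 was above all mutants. *Robo4* rose by 0.60 in the average (standard error 0.16, adjusted p = 0.0370, limma), and the call was kept among the omissions of 1 mouse only without P356, P357, P382, P384 or P392. Under HFD it gave 0.46, and without P392 it passed there at 0.72. The remaining 5, *Cldn5*, *Esam*, *Icam2*, *Cd34* and *Emcn*, had log2 fold changes from 0.17 (*Cldn5*, the tight-junction claudin) to 0.58 (*Cd34*, the sialomucin of capillary endothelium) and did not pass.

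**Figure D3:**
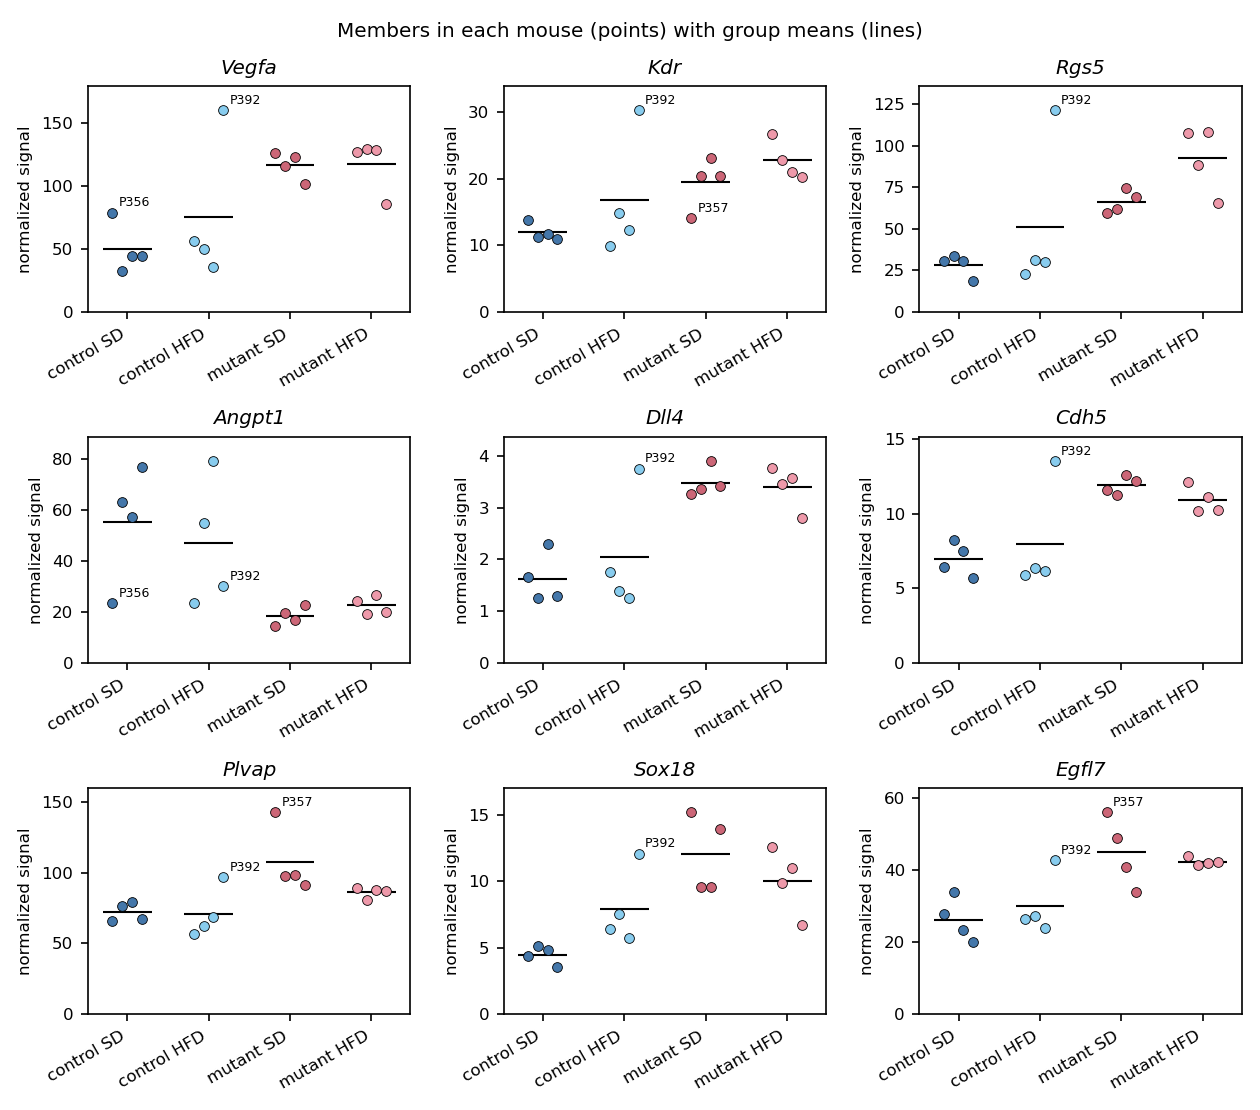
Normalized signal (vertical axis, from 0) of 9 members in each mouse, with a point per mouse and a line at each group mean (n = 4). P392 stands among or above the mutants on HFD in every panel except *Angpt1*, where it is among the lower controls, and P356 is the highest *Vegfa* and the lowest *Angpt1* of the controls on SD.

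Of the 5 endothelial transcription factors, *Sox18* rose on SD and in the average, and the medians of the group were 0.83 on SD, 0.34 on HFD and 0.54 in the average. On HFD 0 of the 5 were under an unadjusted p of 0.05, where 6.58% of all genes were higher and 3.6% lower. *Sox18* encodes an SRY-related factor of vascular and lymphatic development (ENSMUSG00000046470, chromosome 2, 181669836 to 181671640). Its level was 4.34, 5.10, 4.84 and 3.55 in controls and 15.2, 9.55, 9.56 and 13.9 in mutants on SD. The HFD animals had 6.38, 7.53, 5.75 and 12.1 among controls and 12.6, 9.87, 11.03 and 6.70 among mutants. All 4 mutants on SD were above all controls on SD, while on HFD the genotypes overlapped even without P392, since P388 was below P390. The log2 fold change was 1.32 on SD (standard error 0.24, adjusted p = 0.0164, limma), 0.34 on HFD (adjusted p = 0.665, limma; 0.55 without P392, where it did not pass) and 0.83 in the average (adjusted p = 0.0102, limma). On SD the call was lost without P383 and without P384 (log2 fold changes within 1.10 to 1.52 over all alternatives). Its interaction of genotype and diet was -0.98 (adjusted p = 0.924, limma), so the difference between diets did not pass. The ETS factors *Erg*, *Fli1* and *Ets1* gave 0.54, 0.56 and 0.48, and *Sox17*, a factor of arterial identity, 0.53, with adjusted p from 0.0719 (*Fli1*) to 0.366 (*Sox17*).

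In the secreted and vasoactive group, *Egfl7* rose and the other 4 did not pass. *Egfl7* encodes a matrix protein that endothelial cells deposit (ENSMUSG00000026921, chromosome 2, 26580014 to 26593120). It was measured at 27.7, 33.9, 23.3 and 20.04 in controls and 56.1, 48.8, 40.8 and 33.9 in mutants on SD. For HFD the measurements were 26.4, 27.2, 24.04 and 42.8 in controls and 44.03, 41.3, 41.9 and 42.2 in mutants. Mutants on SD did not overlap controls, although P384 exceeded P358 by less than the digits given show, and on HFD P392 lay among the mutants. *Egfl7* rose by 0.64 in the average (standard error 0.13, adjusted p = 0.0126, limma). On HFD *Egfl7* gave 0.52, and without P392 it passed there at 0.70. *Esm1*, an endothelial proteoglycan of tip cells, had the widest range of the list, 14.6-fold from P357 to P388, and was picked out after its values were seen. It was 24.2, 14.7, 23.5 and 35.8 in controls and 3.58, 39.5, 48.9 and 36.9 in mutants on SD, and P357 had the lowest value of all mice. On HFD it was 22.3, 23.4, 29.2 and 11.5 in controls and 41.8, 47.7, 38.5 and 52.3 in mutants, and every mutant was above every control, of which P392, high in most members, was lowest. Its log2 fold change was -0.03 on SD and 1.11 on HFD, with adjusted p of 0.984 and 0.543. Without P357 it was 0.81 on SD, and without P392 0.84 on HFD, and it passed in neither. With both libraries left out it passed on SD and on HFD, at the same fold changes. *Vwf*, *Nos3* and *Ramp2*, for von Willebrand factor, endothelial nitric oxide synthase and the co-receptor of adrenomedullin, gave 0.12, 0.14 and 0.43 in the average.

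No member passed the adjusted threshold between diets. Between HFD and SD, 0 members and 0% of all genes passed in controls, and 0 members and 0% in mutants (limma), and at an unadjusted p under 0.05 there was 1 member of 40 in each, against 4.13% of all genes in controls and 5% in mutants, so the members had no more than the share of all genes. They were *Sox18* in controls (0.72) and *Ptprb* in mutants (0.48). *Sox18* was higher in every control on HFD than in every control on SD (adjusted p = 0.998, limma). In mutants, every mouse on HFD was above every mouse on SD in *Ptprb* (adjusted p = 0.813, limma) and below in *Plvap*. For *Plvap* the log2 fold change was -0.30 (adjusted p = 0.813, limma), and -0.15 without P357. These members were picked out after their values were seen. The share of all genes that separated between diets was not counted, so these separations cannot be set against it. The median log2 fold change of the members with HFD was 0.13 in controls, where it was -0.10 without P392, and 0.05 in mutants. Single members ran from -0.54 to 0.72 in controls and from -0.44 to 0.95 in mutants, the latter for *Esm1*, which was 0.11 without P357. The 95% intervals leave room for sizeable changes, for *Vegfa* -0.32 to 1.16 in controls and -0.75 to 0.73 in mutants. The interaction of genotype and diet passed in 0 members and 0% of all genes, with 1 member at an unadjusted p under 0.05 (4.2% of all genes), and its median over the members was -0.09, or 0.15 without P392.

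The animal numbers fell into 2 ranges, P339 to P359 with 3 controls and 3 mutants, and P381 to P392 with 5 of each. What the ranges stand for is not given. In the lower range the median over the members of mutant minus control was 0.55, with 34 of 40 above 0 (49.4% of all genes), but the controls there were all on SD and 2 of the 3 mutants on HFD. In the upper range, which held P392, the median was 0.43, with 35 of 40 above 0 (52.9% of all genes). The controls there were on HFD except P383, and the mutants P381, P382 and P384 were on SD. The differences within both ranges thus mix diet with genotype. *Vegfa* differed by 1.38 and 0.89 in the lower and upper range, *Rgs5* by 1.38 and 1.10, *Angpt1* by -1.20 and -1.16, and *Sox18* by 1.29 and 0.56. *Tek* differed by 0.77 and 0.38, and *Apln* went opposite ways, by -0.14 and 0.58. Fitted on the 10 mice of the upper range alone, 0 members and 0% of all genes passed (limma), with 13 higher and 1 lower at an unadjusted p under 0.05 (9.16% and 6.78% of all genes) and a median of 0.50.

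Other endothelial genes, in a list of 39 found in the table of which 36 were tested, are given next. This list and those that follow were also chosen with earlier results of these data known. In the average 5 rose and 0 fell (4.48% and 2.06% of all genes), on SD 2 rose and 0 fell (1.37% and 0.474%), and the medians were 0.36 and 0.38. *Gpihbp1* encodes the protein that carries lipoprotein lipase across capillary endothelium (ENSMUSG00000022579, chromosome 15, 75596628 to 75599481). It was 1.47, 1.61, 0.504 and 1.01 in controls and 4.50, 4.57, 4.51 and 5.49 in mutants on SD. On HFD, controls were at 1.21, 1.62, 2.68 and 1.33 and mutants at 3.46, 6.68, 5.58 and 1.22. No overlap occurred on SD, and on HFD P388 was at the level of the controls. Its log2 fold change was 1.73 on SD (standard error 0.37, adjusted p = 0.0318, limma) and 1.34 in the average. *Ushbp1*, another gene enriched in endothelium (ENSMUSG00000034911, chromosome 8, 71384272 to 71395802), was 4.80, 4.48, 3.92 and 4.57 in controls and 13.9, 11.4, 7.36 and 8.07 in mutants on SD. It was 4.35, 6.30, 6.37 and 11.2 in controls and 9.002, 9.86, 8.87 and 8.13 in mutants on HFD. Again the SD groups were apart and P392 exceeded the mutants on HFD. The log2 fold change was 1.07 on SD (standard error 0.23, adjusted p = 0.0321, limma). On SD the calls of *Gpihbp1* and *Ushbp1* were each lost in 9 alternatives, 7 of them the omission of P357, P358, P359, P381, P382, P383 or P384. *Ramp3*, *Rasip1* and *S1pr1* also rose in the average, by 0.75, 0.41 and 0.62.

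In a list of 40 genes of VEGF, hypoxia and Notch signalling, of which 38 were tested, 10 rose and 2 fell in the average (4.48% and 2.06% of all genes), and 4 rose and 0 fell on SD (1.37% and 0.474%), with medians of 0.21 and 0.32. *Jag2* encodes a ligand of the Notch receptors (ENSMUSG00000002799, chromosome 12, 112907819 to 112929776). Its level was 31.4, 20.3, 14.3 and 15.6 in controls and 70.96, 51.8, 59.6 and 62.8 in mutants on SD. With HFD the level was 25.3, 33.6, 19.5 and 51.3 in controls and 55.6, 61.6, 64.5 and 54.2 in mutants. Mutants exceeded controls without overlap on both diets, P392 included, which made *Jag2* the only gene with listed values for which this held. Among the other endothelial genes, it also held for *Ramp3* and *Rasip1*, whose values are not listed. Of all genes tested, 6.09% had every mutant above every control on SD and 2.96% on HFD. The share for both diets at once was not counted, and *Jag2* was named for its fold change among genes that passed. The log2 fold change of *Jag2* was 1.63 on SD (standard error 0.26, adjusted p = 0.00962, limma) and 0.94 on HFD (adjusted p = 0.226, limma). In the average it was 1.28 (adjusted p = 0.00174, limma), and the call on SD held in all 28 alternatives. The other genes that rose in the average were the ligand *Jag1* (0.59), the mural receptor *Notch3* (0.64), the Notch target *Hes1* (0.64) and the hypoxia-inducible factor *Epas1* (0.57). So did placental growth factor *Pgf* (0.70), *Fgfr1* (0.67), *Pdgfa* (0.38), the semaphorin *Sema3a* (1.36) and the semaphorin receptor *Plxnd1* (0.50). *Vegfd*, a second lymphatic ligand, and *Smad6*, an inhibitor of BMP signalling, fell, with -1.12 and -0.61.

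Markers of other cell types are given beside these results, and their part in the result was not tested. Their counts in the average stand against 4.48% of all genes higher and 2.06% lower. The pericyte and smooth muscle list, 8 of whose 10 genes were tested, had 5 genes higher and 0 lower in the average, *Kcnj8*, *Abcc9*, *Vtn*, *Higd1b* and *Myh11*, and *Tagln* was its most abundant gene at a mean of 15.7. Its summed level was 35.8, 44.5, 48.3 and 36.7 in controls and 73.1, 49.1, 59.7 and 68.01 in mutants on SD, and 30.5, 33.6, 29.98 and 66.4 in controls and 67.03, 63.1, 58.8 and 52.7 in mutants on HFD. Mutants were above controls on each diet save for P392, whose sum was within the mutant range. The macrophage list had 2 of 8 genes higher in the average, *C1qa* and *Cx3cr1*, and *C1qa* led it at a mean of 26.6. Summed levels were 45.7, 59.2, 57.7 and 59.9 in controls and 97.6, 80.2, 81.5 and 176 in mutants on SD, and 40.7, 54.5, 76.4 and 132 in controls and 101, 166, 103 and 73.8 in mutants on HFD. P384 and P341 were the highest of these, and P392 was the highest control.

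The red blood cell list, led by *Hba-a2* at a mean of 719, had 0 of 5 genes past the threshold in the average and 5 higher at an unadjusted p under 0.05 (13% of all genes). Its sum was 581, 582, 3252 and 1679.9 in controls and 4662, 2516, 2808 and 2254 in mutants on SD, and 774, 1782, 956 and 1218 in controls and 2406, 1291, 2077 and 1824 in mutants on HFD. P357 had the highest sum, P359 among the controls on SD was second, and P392 was within the controls. The fibroblast list had 0 of 6 genes past the threshold, and its sum, led by *Col1a2* at a mean of 259.5, was 216, 262, 209.8 and 221 in controls and 254, 285, 301 and 405 in mutants on SD, and 183, 182, 125 and 696 in controls and 381.5, 409, 569.9 and 261 in mutants on HFD. P392 had the highest sum, of which *Col1a2* made up 623. Of the blood-brain barrier list, 7 of 8 genes were found, 5 were tested and 0 passed, and its sum lay between 31.0 and 48.3, with *Slc2a1* most abundant and *Slco1a4* at 0 in P357.

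Markers of the intermediate and posterior lobes differed between libraries. The melanotroph list, led by *Pomc* at a mean of 15618, had 0 of 4 genes past the threshold and summed to 11606, 12563, 16262 and 17521 in controls and 1666, 15236, 13756 and 12371 in mutants on SD, and to 15598, 11369, 42298 and 3484 in controls and 22208, 21992, 14267 and 19855 in mutants on HFD. P357 and P392 were the lowest by far, and P391 was the highest. The posterior lobe list had 1 of 7 genes higher in the average, its most abundant gene *Col25a1*, and summed to 23.7, 23.98, 23.4 and 29.1 in controls and 17.99, 38.7, 30.6 and 28.9 in mutants on SD, and to 26.3, 25.3, 24.4 and 22.1 in controls and 32.99, 30.9, 31.7 and 34.8 in mutants on HFD. *Col25a1*, at a mean of 12.7, led this sum. Of the 7 genes, 2 had log2 fold changes above 0 on SD (49.0% of all genes), with a list median of -0.64. On HFD 6 did (53.9% of all genes), with a median of 0.38, and in the average 4 did (50.4% of all genes), with a median of 0.00. The posterior lobe marker *Rax* was listed at 0 in P357 and P392, *Nkx2-1* at 0 in P392 and *Lhx2* at 0 in P357. With these 2 libraries both left out, 27 members were called higher and 1 lower in the average (11.5% and 7.10% of all genes), 23 higher on HFD (5.54%) and 15 higher on SD (4.71%). The medians were then 0.61, 0.58 and 0.47, where all 16 libraries gave 0.48, 0.36 and 0.51. P357 and P392 were picked out after their values were seen. Calls made without them show how the result depends on them and are no separate test. With a score of these lobe genes as a covariate, 11 members were called higher and 1 lower in the average (5.24% and 2.98% of all genes), 1 higher on SD (0.223%) and 0 on HFD (0.467% of all genes higher). The medians were then 0.47, 0.36 and 0.46 in the average, on SD and on HFD, and 20 members were higher and 1 lower on HFD at an unadjusted p under 0.05 (8.16% and 5.67% of all genes).

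Endocrine and oestrogen-induced genes complete the lists. The anterior endocrine list, led by *Prl*, had 0 of 12 genes past the threshold in the average and summed to between 330188 and 603841 over the mice, highest in P357. Of the 4 oestrogen-induced genes *Prl*, *Gal*, *Pgr* and *Greb1*, *Gal* and *Greb1* rose in the average, by 2.50 and 0.71, and the summed level, almost all of it *Prl*, was 262517 to 500879. *Gal*, which encodes the peptide galanin, was 1294, 278, 193 and 94.7 in controls and 3910.1, 1849, 2583 and 2265 in mutants on SD. It was 652, 247, 295 and 2548 in controls and 2579, 1949, 2149 and 1819 in mutants on HFD. P356 and P392 had the highest *Gal* of the controls on their diets, as they did for *Vegfa*.

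**Figure D4:**
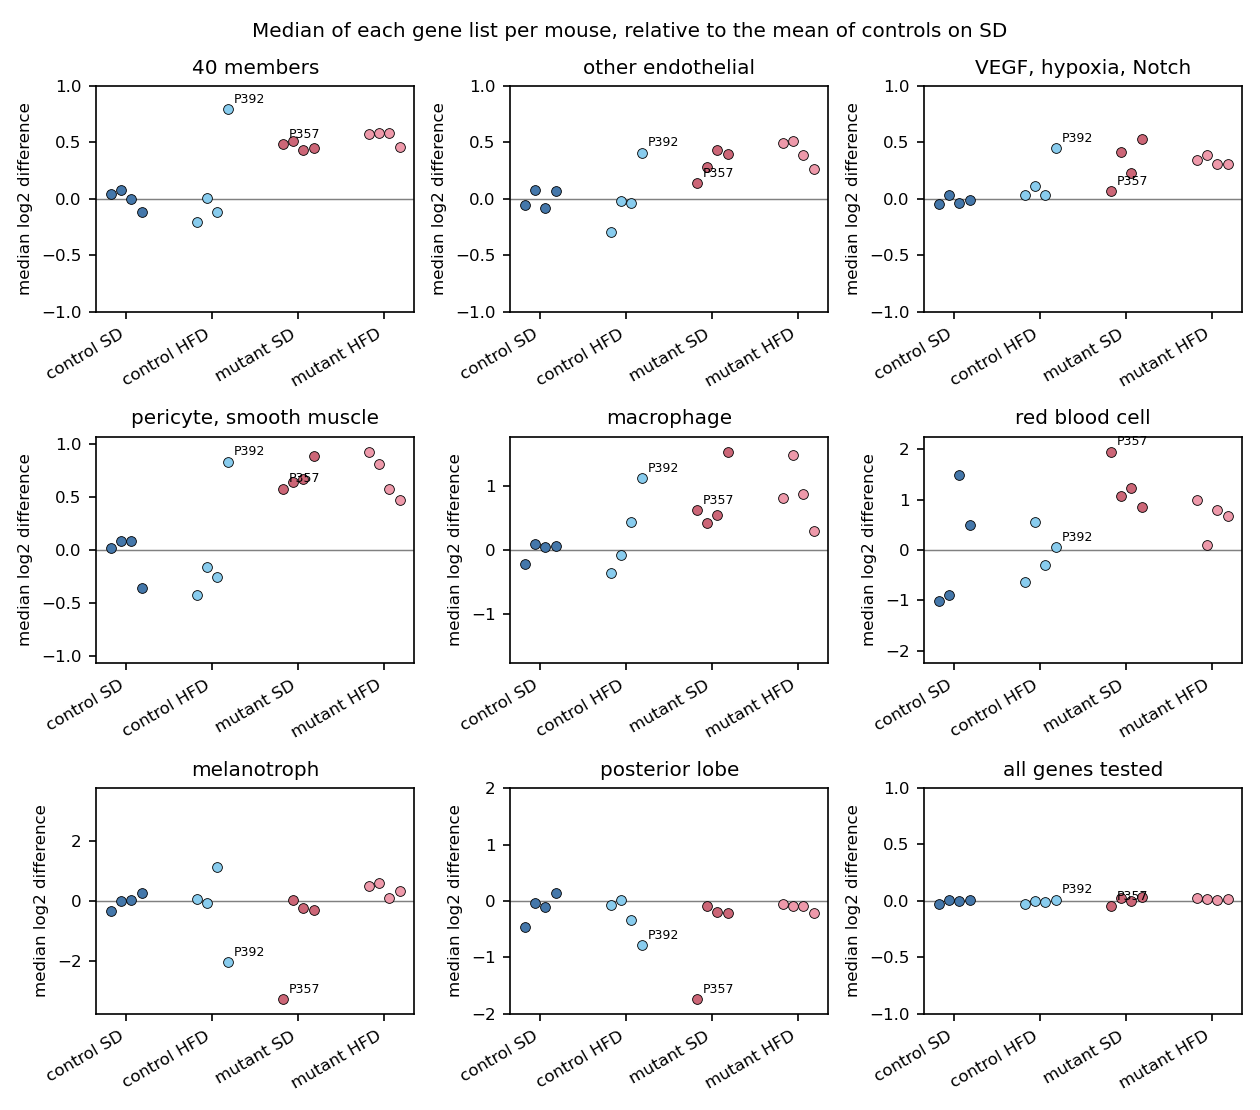
Median over the genes of each list of the difference in log2(signal + 0.5) from the mean of controls on SD (vertical axis), with a point per mouse and a panel per list. For the 40 members, the mutants lie at 0.44 to 0.58, P392 at 0.79 and the other controls at -0.21 to 0.08, while the median of all genes tested lies between -0.05 and 0.03 in every mouse.

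Of the members, 16 overlap an annotated gene on the opposite strand. Among them are 7 of the 15 named with an identifier, *Angpt1*, *Notch4*, *Dll4*, *Cdh5*, *Eng*, *Plvap* and *Egfl7*. *Esm1*, whose values are also listed, is another of them. Whether counting used the strand is not given in the sources used here, so reads of such a pair may not be told apart.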

How the data were processed

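The authors deposited normalized expression values per gene for the 16 pituitary libraries, a signal estimated with Kallisto and Sleuth; the submitters' processing notes name mm10, and versions and use of strand were not given in the sources used here. Among 1457 genes with a single transcript of at least 1500 bases, only low values worth a few reads were used, 90 to 143 per library. Of these, 79.0% to 91.8% were near whole multiples of a step (tolerance 0.15 reads, fragment length 200 bases). The step was itself chosen for such closeness, so the share is no separate check. The level worth 3 reads was taken from this step. Symbols were matched for 17351 of 17362 identifiers. Values were tested as log2(value + 0.5) in limma 3.58.1 (R 4.3.3), with a mean for each of the 4 groups, 6 contrasts, a filter at a mean of 1, eBayes with trend and Benjamini-Hochberg adjustment over all genes tested; because of the added 0.5, changes of low genes are understated. Samples carried animal numbers only, so nothing was paired. Values in every mouse are given for the most abundant member of each role, for each member with an adjusted p under 0.05 in any contrast, and for the 3 pathway genes of largest fold change among those that passed within a diet or genotype. They are also given for *Esr1*, *Esm1* and *Gal*, which fall outside this rule. Coordinates are from GENCODE M21 (GRCm38), and upstream windows from RefSeq (GRCm38.p6). Alternatives were other pseudocounts, filters, scalings, covariates, subsets of mice and the omission of each library. The members and lists were chosen with earlier results of these data known. Python 3.11.15, numpy 2.4.6, pandas 2.3.3, scipy 1.17.1 and matplotlib 3.10.9 were used.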

Additional observations from a re-analysis of the deposited data

Results flagged for a closer look

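Within each group of 4 mice, values far from the other 3 were searched with Dixon's ratio at its 5% limit, over 80 groups, and 11 were found; chance flags about 1 in 20 groups, or 4 here. P392, a control on HFD, held 6 of them. In this mouse *Vegfa* was 160.4 (other controls on HFD 35.9 to 56.2), *Rgs5* 121 (22.8 to 31.3), *Apln* 6.51 (5.22 to 5.43), *Cdh5* 13.5 (5.93 to 6.36), *Robo4* 9.58 (4.11 to 4.62) and *Egfl7* 42.8 (24.0 to 27.2). P357, a mutant on SD, held 2, with *Plvap* at 143 (other mutants on SD 91.7 to 98.2) and *Esr1* at 10.02 (20.5 to 22.2). P388, a mutant on HFD, held 2, with *Vegfa* at 85.5 (other mutants on HFD 127 to 129) and the median over the members at 0.46 (0.58 in each of the others). In P384, a mutant on SD, *Gpihbp1* was 5.49 (4.50 to 4.57).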

How the results depend on the processing

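Counts of called members depended on single libraries, and medians less so; the cause was not tested. Omission of P356 with P392, omission of P357 with P392, and the fit on animal numbers P381 to P392 alone were chosen after seeing the data. Values are on the log2(signal + 0.5) scale, with 4 mice per group, 1 tissue and no cell counts. Percentages are the shares of all genes called higher and lower. On SD 1 member was called higher and 0 lower (1.37% and 0.474%). This became 1 and 1 with median scaling (1.39% and 0.544%), 4 and 0 with only the 8 mice compared (1.72% and 0.446%), and 3 in all, 2 and 1, with the animal-number range as a covariate (1.30% and 0.774%). Scaled to the sum without *Prl* and mitochondrial genes, the counts were 1 and 0 on SD (0.523% and 0.369%) and 9 and 1 in the average (3.11% and 2.20%). The median on SD was then 0.42 for the members and -0.10 for all genes. At an unadjusted p under 0.05 (limma), 14 members were then higher and 1 lower on SD, against 6.82% and 13.9% of all genes. With the score of lobe genes as a covariate, the counts were 1 and 0 on SD (0.223% and 0.0697%), 0 and 0 on HFD (0.467% and 0.125%) and 11 and 1 in the average (5.24% and 2.98%). Without P357 and P392, SD had 15 and 0 (4.71% and 1.99%), and without P356 and P392 it had 14 and 1 (5.77% and 3.75%). With 1 library left out, SD had 0 to 16 called, 0 without P383 (0.195% and 0.0558%) or P384 (0.328% and 0.0697%), and 15 and 1 without P392 (3.74% and 1.68%). On HFD 0 were called (0% and 0%), which became 23 and 0 without P357 and P392 (5.54% and 1.88%), 15 and 0 without P356 and P392 (4.22% and 1.25%), and 15 and 0 without P392 (3.62% and 0.934%). In the average of both diets 11 were called higher and 1 lower (4.48% and 2.06%). That became 28 in all, 27 and 1, without P357 and P392 (11.5% and 7.10%), 22 in all, 21 and 1, without P356 and P392 (9.86% and 6.56%), 14 and 1 without P357 (5.91% and 2.93%), and 0 on animal numbers P381 to P392 (0% and 0%). With 1 library left out, 8 to 23 were called in the average, the most without P392 (8.59% and 4.87%). Over all alternatives the median of the members was 0.36 to 0.61 on SD, 0.27 to 0.58 on HFD and 0.40 to 0.61 in the average. The median interaction was -0.09, and -0.24 to 0.15 with 1 library left out. *Notch4* in the average was -0.13, and reached 0.018 without P339.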
